A study of Mus musculus with 36 samples.

Results

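The Toll-like receptors are the germline-encoded sensors of innate immunity, and Cd14 is the co-receptor that hands lipopolysaccharide to one of them. 10 genes were followed: the surface receptors Tlr1, Tlr2, Tlr4 and Tlr5, the endosomal receptors Tlr3, Tlr7, Tlr8, Tlr9 and Tlr13, and Cd14. They were taken by gene name from a table of 56748 genes, and all 10 were present. mRNA was sequenced from visceral (epididymal) white adipose tissue (visWAT) and liver of the same 18 male C57BL/6J mice, which gave 36 libraries in 8 groups of tissue, genotype and diet. Mice that carried floxed Mlkl alleles and an adiponectin-promoter Cre, which is active in mature adipocytes (MlklAdi-KO), were compared with littermates that carried the floxed alleles without Cre (WT). For 16 weeks they received a normal chow diet (NCD, 4 mice per genotype) or a high-fat diet (HFD, 5 mice per genotype). Mlkl encodes the executioner protein of necroptosis, and both the WT and the knockout mice therefore carried loxP sites, with the deletion directed at fat cells and not at immune cells or hepatocytes. Every library was a separate mouse within its group, and RNA came from whole tissue, in which adipocytes or hepatocytes are mixed with macrophages and other cells.

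The surface receptors recognise components of bacterial walls and flagella. Tlr2 pairs with Tlr1 or Tlr6 and binds lipopeptides, Tlr4 binds lipopolysaccharide together with the accessory protein encoded by Ly96, and Tlr5 binds flagellin. The endosomal receptors recognise nucleic acids and need the chaperone Unc93b1 to leave the endoplasmic reticulum. Tlr3 binds duplex RNA, Tlr7 and Tlr8 belong to a subfamily that responds to RNA and its breakdown products, Tlr9 binds CpG-rich DNA, and Tlr13 binds bacterial ribosomal RNA. All of these except Tlr3 signal through the adaptor Myd88, whereas Tlr3 uses Ticam1, and Tlr4 can use both. In adipose tissue most of these genes are known from macrophages, which accumulate in obesity, and Kupffer cells, the resident macrophages of the liver, express several of them as well.

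On mm39, the build of the deposited annotation, Tlr7 (chromosome X, 166087925 to 166113554, minus strand) and Tlr8 (chromosome X, 166025692 to 166047325, minus strand) were neighbours, and Tlr13 stood apart on the same chromosome (105186810 to 105204099, plus strand). Tlr1 was on chromosome 5 (65082022 to 65090906, minus strand), Tlr2 on chromosome 3 (83743579 to 83749074, minus strand) and Tlr5 on chromosome 1 (182782353 to 182804010, plus strand). Tlr3 on chromosome 8 (45848702 to 45864117, minus strand) overlapped an annotated gene on the opposite strand, Gm45542, that was listed at 0 in all 36 libraries. Tlr4 on chromosome 4 (66745821 to 66848521, plus strand) contained an annotated non-coding gene on its own strand, ENSMUSG00000121059, with 3.77 to 8.25 FPKM in visWAT and 0.196 to 1.20 FPKM in liver. How reads were divided between Tlr4 and that gene is not known, so the level of Tlr4 is uncertain. FPKM are fragment counts divided by exon length and library size, and levels are comparable between genes on this scale because gene length is taken out.

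Promoter sequences of 7 of the 10 genes were found in RefSeq on GRCm38.p6, from 250 bases before to 50 bases after the transcription start, with a pair of starts for Tlr1. Tlr4, Tlr7 and Cd14 had no match. Promoters of genes that moved in visWAT are shown together with that of Tlr5, which moved in liver instead. Capitals mark the motif matches found on either strand: GAGGAAG, the core recognised by the macrophage factor PU.1, in Tlr13 and Tlr1, an NF-kappaB motif in Tlr2, and the TATA box TATAAA, overlapping its own reverse match, in Tlr8.
Tlr13, chrX:106143025-106143324, plus strand: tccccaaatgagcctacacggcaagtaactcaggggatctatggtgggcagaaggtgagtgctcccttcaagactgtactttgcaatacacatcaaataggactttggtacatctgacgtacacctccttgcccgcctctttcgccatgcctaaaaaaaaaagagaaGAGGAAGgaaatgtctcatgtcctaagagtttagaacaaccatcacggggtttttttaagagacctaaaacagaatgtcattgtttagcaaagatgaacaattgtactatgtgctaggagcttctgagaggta
Tlr8, chrX:167264280-167264579, minus strand: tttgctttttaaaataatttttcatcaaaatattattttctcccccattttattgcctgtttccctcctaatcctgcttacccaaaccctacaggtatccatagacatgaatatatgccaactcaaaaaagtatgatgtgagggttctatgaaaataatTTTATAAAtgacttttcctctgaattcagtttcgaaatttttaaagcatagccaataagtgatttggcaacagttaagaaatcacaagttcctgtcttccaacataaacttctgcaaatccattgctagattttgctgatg
Tlr1, chr5:64933509-64933808, minus strand: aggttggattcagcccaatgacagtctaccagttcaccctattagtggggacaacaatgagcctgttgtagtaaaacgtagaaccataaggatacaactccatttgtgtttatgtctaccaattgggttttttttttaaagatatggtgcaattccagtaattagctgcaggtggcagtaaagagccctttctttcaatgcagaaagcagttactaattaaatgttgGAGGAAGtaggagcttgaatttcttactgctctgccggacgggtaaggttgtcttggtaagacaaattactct
Tlr2, chr3:83841559-83841858, minus strand: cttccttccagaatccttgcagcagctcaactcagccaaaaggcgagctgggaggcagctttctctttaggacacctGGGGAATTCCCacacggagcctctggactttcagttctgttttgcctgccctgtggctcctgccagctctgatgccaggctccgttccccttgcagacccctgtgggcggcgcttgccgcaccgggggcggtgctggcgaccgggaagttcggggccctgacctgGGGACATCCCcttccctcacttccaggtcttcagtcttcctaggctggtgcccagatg
Tlr5, chr1:182954538-182954837, plus strand: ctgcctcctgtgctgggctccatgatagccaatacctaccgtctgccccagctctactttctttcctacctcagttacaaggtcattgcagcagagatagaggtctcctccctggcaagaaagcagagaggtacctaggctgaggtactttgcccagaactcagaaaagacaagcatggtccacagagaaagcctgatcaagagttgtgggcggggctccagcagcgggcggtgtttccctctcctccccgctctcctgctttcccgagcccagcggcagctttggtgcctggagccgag

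GAGGAAG began at position -83 of Tlr13 and -23 of Tlr1, counted from the transcription start, and Tlr9 held it at -112 and, on the opposite strand, at 12. These letters occurred in 13.6% of the 32851 mouse promoters of the same length. NF-kappaB matches began at -173, -172 and -8 in Tlr2, where those at -173 and -172 overlapped, and at -211 in Tlr3, against 8.46% of all promoters. TATAAA or its reverse began at -91 and -89 of Tlr8, against 13.6% of all promoters, and the interferon-stimulated response element (GAAA, any 2 bases, GAAA), held by 3.44% of all promoters, was in none of the 8. Tlr5 and the second Tlr1 start held none of the 4 motifs. The matches describe letters in these windows and were not tested as binding sites.

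Libraries held 20875463 to 30322171 reads on genes, and the fewest reads of any of the 10 genes in a library was 2, for Tlr9 in liver. Mlkl in visWAT was 1.96 to 2.72 FPKM in the MlklAdi-KO mice and 3.91 to 6.28 FPKM in all WT mice but one. The NCD library labelled WT from mouse 182 had 2.29 FPKM, within the range of the knockout mice, and it is called the library labelled WT wherever it decides a value. The WT NCD visWAT library of mouse 183 held 66443 FPKM of the seminal vesicle gene Svs4 and that of mouse 182 held 117 FPKM, whereas the other NCD-fed WT mice had 0. On a scale that sums to a fixed total in each library (TPM), the median of all genes shifted by 0.35 (log2) between HFD and NCD in WT visWAT, by 0.30 between the genotypes on NCD and by -0.37 in their interaction. It shifted by 0.47 and 0.83 between visWAT and liver of WT mice on NCD and HFD. Differences were therefore taken on the FPKM scale as deposited, on which the median gene moved by between -0.03 and 0.01 in every comparison. Adipoq, Plin1 and the other mature adipocyte markers summed to 4398 to 8635 FPKM in visWAT and to 44.3 to 156 FPKM in liver, and Alb was 25146 to 47072 FPKM in liver and at most 460 FPKM in visWAT (MlklAdi-KO HFD mouse 156).

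Which receptors does HFD raise in the fat of WT mice? Tlr13, Tlr8 and Tlr1 rose most, followed by Tlr7, Tlr2 and Cd14, and then by Tlr4 and Tlr9, whereas Tlr3 and Tlr5 did not pass the test. 8 of 10 were higher on HFD, with a median difference of 1.54 over the 10 genes and -0.01 over all genes tested (log2(FPKM + 1)). Over all 14161 genes tested in limma with Benjamini-Hochberg adjustment, 21.9% were higher and 15.8% lower. These were 3108 and 2239 genes, and the split was 4113 to 233 on the TPM scale and 2693 to 3169 in edgeR, while the 8 receptor genes were called in each. The ranges of the diets did not overlap for the same 8 genes, whereas 19.6% of all genes tested were higher without overlap. In whole tissue, more cells of a type and more RNA per cell cannot be told apart.

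**Figure D1:**
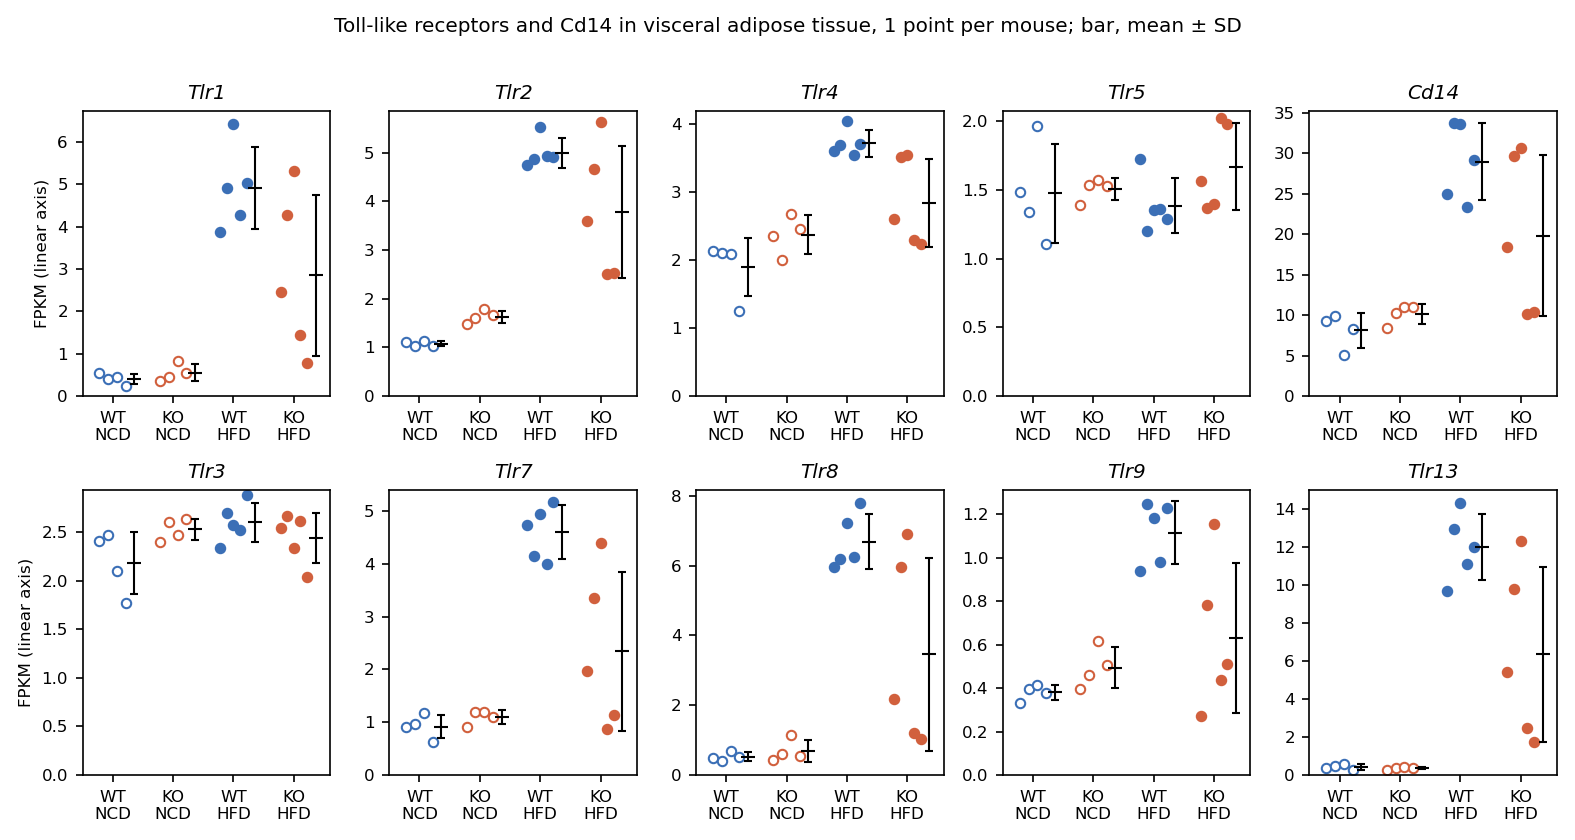
Level of each of the 10 genes in visWAT (y axis, FPKM, own scale per panel) by genotype and diet (x axis). Points are mice (4 per NCD group, 5 per HFD group), and bars are the mean with the SD. On HFD the 5 WT mice of Tlr13 sat between 9.65 and 14.3 FPKM, and the 5 MlklAdi-KO mice were spread from 1.73 to 12.3 FPKM.

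Values are given in the order of mice 165, 180, 182 and 183 for WT NCD, 166, 179, 197 and 199 for MlklAdi-KO NCD, 154, 155, 161, 162 and 164 for WT HFD, and 151, 152, 153, 156 and 157 for MlklAdi-KO HFD. Tlr13, the sensor of bacterial ribosomal RNA, had 0.372, 0.485, 0.592 and 0.258 FPKM in the visWAT of WT mice on NCD and 9.65, 12.9, 14.3, 11.1 and 12.0 FPKM on HFD. The lowest HFD mouse was far above the highest NCD mouse, and the ratio of the means was 28.1. On the log2(FPKM + 1) scale Tlr13 rose by 3.18 (SE 0.11, 95% interval 2.93 to 3.43, limma with Benjamini-Hochberg adjustment, adjusted p = 2.2e-07). This scale understates the change of genes with low FPKM, and edgeR on the recovered reads gave 4.77. Tlr13 was among the least abundant of the 10 genes on NCD (eighth, 0.427 ± 0.144 FPKM, SD, n = 4) and the most abundant receptor after Cd14 on HFD (12.0 ± 1.76 FPKM, n = 5).

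Tlr8 had 0.494, 0.394, 0.700 and 0.510 FPKM on NCD and 5.97, 6.20, 7.23, 6.24 and 7.79 FPKM on HFD in WT visWAT. Tlr7, its neighbour on the X chromosome, had 0.909, 0.968, 1.17 and 0.624 FPKM on NCD and 4.73, 4.15, 4.95, 3.99 and 5.17 FPKM on HFD. Tlr9, the sensor of CpG-rich DNA, had 0.331, 0.397, 0.414 and 0.375 FPKM on NCD and 0.938, 1.25, 1.18, 0.978 and 1.23 FPKM on HFD. All HFD mice lay above all NCD mice for these 3 endosomal receptors, by a ratio of means of 12.7 for Tlr8, 5.01 for Tlr7 and 2.94 for Tlr9. In limma with Benjamini-Hochberg adjustment Tlr8 rose by 2.33 (SE 0.09, adjusted p = 2.5e-07), Tlr7 by 1.55 (SE 0.10, adjusted p = 3.2e-06) and Tlr9 by 0.61 (SE 0.07, adjusted p = 0.00017). Tlr9 remained the least abundant of the 10 genes on either diet, at 1.12 ± 0.146 FPKM (SD, n = 5) on HFD.

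Among the surface receptors, Tlr1 had 0.546, 0.403, 0.441 and 0.244 FPKM on NCD and 3.88, 4.91, 6.42, 4.28 and 5.04 FPKM on HFD in WT visWAT. Its partner Tlr2 had 1.12, 1.03, 1.13 and 1.04 FPKM on NCD and 4.75, 4.88, 5.52, 4.93 and 4.91 FPKM on HFD. Tlr4 had 2.13, 2.11, 2.09 and 1.26 FPKM on NCD and 3.61, 3.69, 4.05, 3.54 and 3.70 FPKM on HFD, with mouse 183 the low value on NCD. The groups did not overlap for any of the 3. Tlr2 had a small spread, with an SD of 0.0498 FPKM on NCD (n = 4) and 0.302 FPKM on HFD (n = 5). In limma with Benjamini-Hochberg adjustment Tlr1 rose by 2.06 (SE 0.12, adjusted p = 2.2e-06, ratio of means 12.0), Tlr2 by 1.53 (SE 0.06, adjusted p = 2.5e-07, ratio 4.63) and Tlr4 by 0.72 (SE 0.10, adjusted p = 0.00051, ratio 1.96). Tlr1 was well below Tlr2 on NCD, whereas both had close to the same level on HFD (4.91 ± 0.968 and 5.0 ± 0.302 FPKM, SD, n = 5).

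Cd14, which delivers lipopolysaccharide to Tlr4, was the most abundant of the 10 genes in every visWAT group. It had 9.33, 9.91, 5.07 and 8.33 FPKM in WT mice on NCD, the low value from the library labelled WT of mouse 182, and 24.9, 33.8, 33.6, 23.3 and 29.2 FPKM on HFD. In limma with Benjamini-Hochberg adjustment it rose by 1.73 (SE 0.19, adjusted p = 8.7e-05, ratio of means 3.55). Taken alone, each of the 8 genes had an exact two-sided permutation p of 0.0079, the smallest that 5 against 4 mice allow. Without mice 182 and 183 the difference was 1.48 for Cd14, 0.60 for Tlr4 and 3.17 for Tlr13, and the same 8 genes were called.

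Tlr5, the flagellin receptor, had 1.48, 1.34, 1.96 and 1.11 FPKM on NCD and 1.72, 1.20, 1.35, 1.36 and 1.28 FPKM on HFD, with a difference of -0.05 (95% interval -0.28 to 0.19, limma with Benjamini-Hochberg adjustment, adjusted p = 0.76). Tlr3 had 2.41, 2.47, 2.11 and 1.77 FPKM on NCD and 2.34, 2.70, 2.57, 2.52 and 2.88 FPKM on HFD, with a difference of 0.18 (95% interval -0.00012 to 0.36, adjusted p = 0.11 in limma) and an exact two-sided permutation p of 0.048. The diets overlapped for both genes. In the order of levels Tlr3 went from the second most abundant of the 10 genes to the eighth, and Tlr5 from the fourth to the ninth.

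The rise of the 8 genes went with a rise of the macrophage markers. Adgre1, Csf1r, Cd68, Fcgr1, C1qa, C1qb and Mrc1 rose and Mertk did not pass the test, so that 7 of 8 were higher. Their summed level went from 180 to 203 FPKM in WT mice on NCD to 1216 to 1784 FPKM on HFD. Of the markers of other cells, 2 of 4 monocyte genes (Ccr2 and Ly6c2) and 2 of 3 tested neutrophil genes rose, the neutrophil gene Mmp9 fell, 4 of 5 adipose progenitor genes rose, none of 3 tested B cell genes passed the test, and no T cell gene reached the mean of 0.5 FPKM needed for testing. Of 7 mature adipocyte genes Lep rose and Adipoq, Plin1 and Lipe fell, and of 5 endothelial genes Kdr and Emcn fell. Stab2 and Fcgr2b, both tested markers of liver sinusoidal endothelium, rose, as did Vsig4 and Marco of 4 tested Kupffer cell genes, Clec9a of 2 dendritic cell genes and Spp1 of 4 bile duct genes, while Rgs5 of 2 stellate cell genes fell. None of the 4 mesothelial, 4 hepatocyte, 6 seminal vesicle and 1 epididymal genes tested passed. What part of the change in each receptor belongs to macrophage number was not tested.

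A ratio chosen after the values were seen set each gene against the summed 8 macrophage markers. C1qa, C1qb and Cd68 weighed most in that sum on HFD (means of 404, 564 and 336 FPKM in WT visWAT). On NCD C1qa and C1qb did (means of 78.0 and 66.8 FPKM), so the ratio depends on the most abundant markers. Tlr13 was 1.32 to 3.20 per 1000 FPKM of marker in WT mice on NCD and 7.31 to 8.68 on HFD, and 1.33 to 1.72 and 3.0 to 7.79 in MlklAdi-KO mice. Its HFD and NCD ranges did not overlap in either genotype, and the log2 difference was 1.91 in WT and 1.88 in MlklAdi-KO mice (exact two-sided permutation p = 0.0079 in each, the smallest that 5 against 4 mice allow). With Adgre1 alone as the denominator the differences were 0.83 and 1.20, again without overlap. Tlr1 (0.67 in WT, 0.26 in MlklAdi-KO) and Tlr8 (0.74 and 0.12) were higher per summed marker on HFD and lower per Adgre1, so that no direction can be given for them. Tlr2, Tlr3, Tlr4, Tlr5, Tlr7, Tlr9 and Cd14 were lower per marker on HFD by either denominator and in both genotypes. In WT mice the differences per summed marker ran from -0.60 for Tlr7 to -3.02 for Tlr5. The sum itself rose from 180 to 203 FPKM on NCD to 1216 to 1784 FPKM on HFD in WT mice. Any gene that rose less than the markers is therefore lower by this ratio, as is Tlr5, whose FPKM hardly moved. Such a fall is no result about the receptor, and the share of all genes that fell per marker was not taken. Cd14, which rose in FPKM, went from 27.4 to 55.2 per 1000 FPKM of marker on NCD to 18.3 to 20.5 on HFD in WT mice.

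MlklAdi-KO mice were compared across the diets in the same way. Tlr13, Tlr1, Tlr8 and Tlr2 rose on HFD and the other 6 did not pass the test, so that 4 of 10 were higher, with a median difference of 0.66 over the 10 genes and 0.01 over all genes. Over the 14026 genes tested, 23.3% were higher and 20.3% lower in limma with Benjamini-Hochberg adjustment. The ranges of the diets did not overlap for Tlr13 and Tlr2, against 20.1% of all genes tested. The WT and MlklAdi-KO comparisons share no mice.

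Tlr13 had 0.269, 0.393, 0.430 and 0.369 FPKM in MlklAdi-KO visWAT on NCD and 5.41, 9.76, 12.3, 2.48 and 1.73 FPKM on HFD. Tlr2 had 1.49, 1.60, 1.78 and 1.66 FPKM on NCD and 3.59, 4.66, 5.62, 2.51 and 2.53 FPKM on HFD. All HFD mice were above all NCD mice for both, but the HFD mice ranged from 1.73 to 12.3 FPKM for Tlr13. In limma with Benjamini-Hochberg adjustment Tlr13 rose by 2.17 (SE 0.44, adjusted p = 0.0043, ratio of means 17.3) and Tlr2 by 0.82 (SE 0.19, adjusted p = 0.0071, ratio 2.32).

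Tlr1 had 0.365, 0.447, 0.826 and 0.547 FPKM on NCD and 2.46, 4.27, 5.31, 1.45 and 0.791 FPKM on HFD, and rose by 1.18 (SE 0.34, limma with Benjamini-Hochberg adjustment, adjusted p = 0.021). Tlr8 had 0.442, 0.608, 1.14 and 0.549 FPKM on NCD and 2.19, 5.96, 6.90, 1.21 and 1.03 FPKM on HFD, and rose by 1.19 (SE 0.42, adjusted p = 0.044 in limma). HFD mouse 157 lay within the NCD range for both genes. The call of Tlr8 was lost without any one of mice 166, 179, 197, 199, 151, 152 or 153 (limma adjusted p = 0.061 to 0.10) and without a filter on low values (0.093), and that of Tlr1 without 166 or 179 (limma adjusted p = 0.056 and 0.052).

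Cd14 had 8.40, 10.2, 11 and 11 FPKM on NCD and 18.4, 29.6, 30.6, 10.1 and 10.4 FPKM on HFD in MlklAdi-KO mice, with a difference of 0.76 (SE 0.33, limma with Benjamini-Hochberg adjustment, adjusted p = 0.090). Tlr7 had 0.912, 1.19, 1.20 and 1.10 FPKM on NCD and 1.96, 3.35, 4.40, 0.864 and 1.13 FPKM on HFD, with a difference of 0.55 (SE 0.29, adjusted p = 0.16 in limma). Cd14 was called by edgeR, by DESeq2 and in limma with 4 groups in 1 fit (adjusted p = 0.049, 0.012 and 0.040), and Tlr7 by DESeq2 (adjusted p = 0.027). Mice 156 and 157 on HFD lay within or below the NCD range for both. Without mouse 156 both Cd14 (0.95, limma adjusted p = 0.032) and Tlr7 (0.73, limma adjusted p = 0.047) passed the test, and without mouse 157 Cd14 did (0.94, limma adjusted p = 0.039). Tlr4 was 2.0 to 2.68 FPKM on NCD and 2.24 to 3.54 FPKM on HFD, Tlr9 0.395 to 0.617 and 0.271 to 1.15 FPKM, Tlr5 1.39 to 1.57 and 1.37 to 2.02 FPKM, and Tlr3 2.40 to 2.64 and 2.04 to 2.67 FPKM, with differences from -0.04 to 0.17 that did not pass the test. Of the 8 macrophage markers 6 rose and Mertk fell, and their sum was 203 to 317 FPKM on NCD and 577 to 1579 FPKM on HFD.

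**Figure D2:**
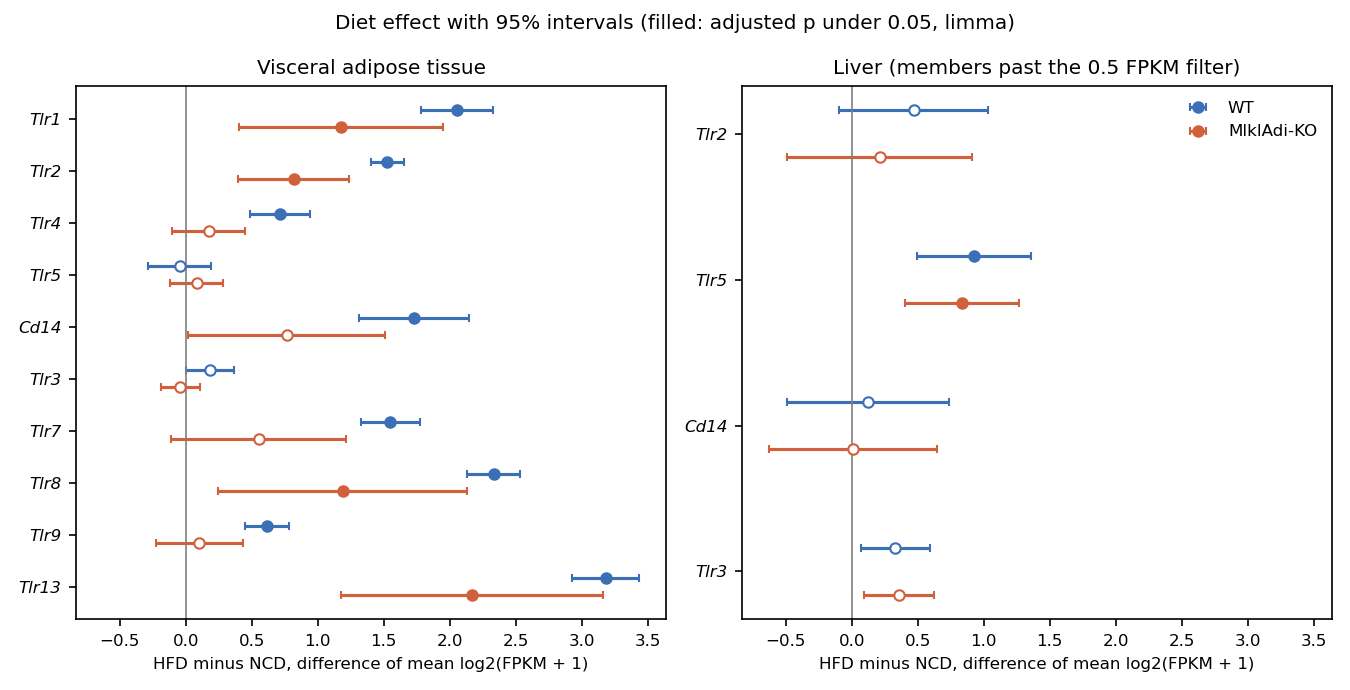
Difference between HFD and NCD in mean log2(FPKM + 1) (x axis) for each gene (y axis) in visWAT (left) and for those past the filter in liver (right), in blue for WT and orange for MlklAdi-KO. Bars are 95% intervals from limma, and filled points passed an adjusted p of 0.05. In visWAT Tlr13 stands farthest right in both genotypes, and in liver Tlr5 does.

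Does the deletion of Mlkl in adipocytes change these genes on HFD? Tlr13, Tlr8, Tlr7, Tlr1, Cd14, Tlr9, Tlr2 and Tlr4 had lower means in MlklAdi-KO than in WT visWAT, but 0 of 10 passed the test, and 0.0215% of the 13963 genes tested (3 genes) did. At an unadjusted p below 0.05, 7 of the 10 and 3003 of all genes would have been called in limma. edgeR called 3 genes and DESeq2 161, none of them among the 10. Leaving out 1 mouse gave 3 to 16 genes in limma, with 16 without MlklAdi-KO mouse 153, and 0 of the 10. The median difference was -0.52 over the 10 genes and 0.00 over all genes tested.

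Tlr13 differed by -1.07 (95% interval -1.96 to -0.18, exact two-sided permutation p = 0.056), Tlr8 by -1.01 (-1.83 to -0.20) and Tlr7 by -0.86 (-1.45 to -0.27, exact permutation p = 0.024). Tlr1 differed by -0.75 (-1.44 to -0.06), Cd14 by -0.65 (-1.33 to 0.03) and Tlr9 by -0.40 (-0.69 to -0.11, exact permutation p = 0.032). Tlr2 differed by -0.37 (-0.74 to -0.0020) and Tlr4 by -0.31 (-0.54 to -0.08, exact permutation p = 0.0079). The adjusted p in limma with Benjamini-Hochberg adjustment was 0.22 to 0.24 for these 8 genes, 0.29 for Tlr5 (0.16, 95% interval -0.04 to 0.36) and 0.51 for Tlr3 (-0.07, 95% interval -0.21 to 0.07). Tlr4 was the 1 gene of the 10 without overlap between the genotypes, against 1.59% of all genes tested that were lower without overlap, by a margin that rounds away (3.54 FPKM in both the highest MlklAdi-KO and the lowest WT mouse).

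The means hide a wide spread between the MlklAdi-KO mice on HFD. Mouse 153 lay within the WT range for 7 of 10 genes, below it for 2 and above it for 1, and mouse 152 lay within it for 5 and below it for 5. Mouse 151 lay below it for 8 and within it for 2. Mouse 156 lay below the WT range for 8, within it for 1 and above it for 1, and mouse 157 below it for 9. Mouse 156 and mouse 157 had Tlr5 at 2.02 and 1.98 FPKM, above the highest WT mouse on HFD (1.72 FPKM). So Tlr5 was highest in the mice in which Tlr13, Tlr8 and Tlr1 were lowest.

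**Figure D3:**
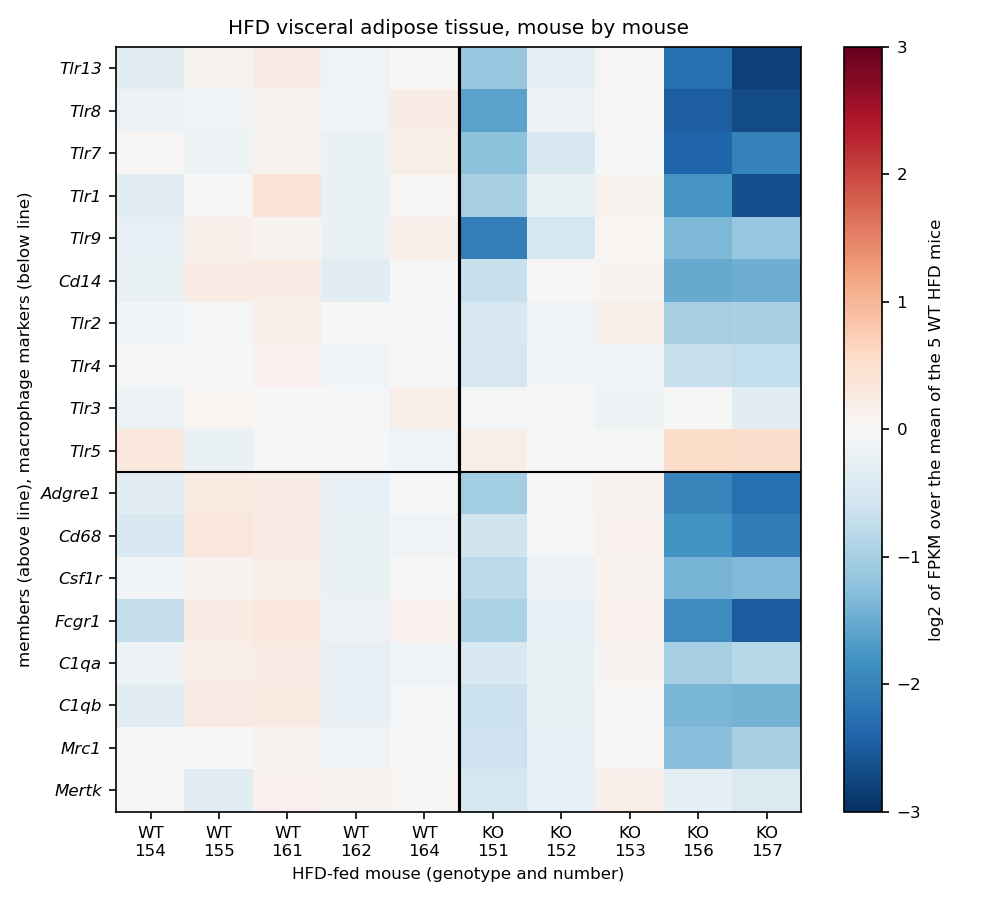
Each column is 1 HFD-fed mouse (WT left, MlklAdi-KO right of the vertical line) and each row a gene in visWAT, with macrophage markers below the horizontal line. Colour is the log2 ratio of FPKM to the mean of the 5 WT HFD mice. Mice 151, 156 and 157 are blue for most of the 10 genes and of the markers, and Tlr5 is red in 156 and 157.

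The macrophage markers followed the same mice. Adgre1 was 41.7, 84.3, 93.3, 22.1 and 18.1 FPKM in the MlklAdi-KO mice on HFD and 67.7 to 105 FPKM in the WT mice, and the summed markers were 978, 1328, 1579, 582 and 577 FPKM. None of the 8 macrophage markers passed the test between the genotypes, with a median difference of -0.70. The mature adipocyte markers summed to 5238 to 8635 FPKM in the MlklAdi-KO and 4741 to 5655 FPKM in the WT mice. Per 1000 FPKM of macrophage marker, Tlr13 differed between the genotypes by -0.61 (exact two-sided permutation p = 0.024) and Tlr7 by -0.56 (exact p = 0.040) on the log2 scale, and with Adgre1 alone by -0.26 (exact p = 0.024) and -0.21 (exact p = 0.27). Per summed marker Tlr8 (-0.70), Tlr1 (-0.40), Tlr9 (-0.32) and Cd14 (-0.02) were also lower in MlklAdi-KO mice. In contrast, Tlr5 (0.93), Tlr3 (0.57), Tlr4 (0.25) and Tlr2 (0.19) were higher. All of these had an exact two-sided permutation p of 0.071 or more, so the 10 genes shared no direction. The p-values are not adjusted for the 10 genes compared. The part of the markers in the genotype difference of each receptor was not tested further.

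Whether the diet effect itself differed between the genotypes was tested as an interaction. 0 of 10 genes passed, as did 0% of the 14136 genes tested in limma with Benjamini-Hochberg adjustment. At an unadjusted p below 0.05 there were 8 of the 10 and 1867 of all genes, and edgeR called 0 genes and DESeq2 21, none of them among the 10. Leaving out 1 mouse gave 0 to 14 genes in limma, with 14 without WT NCD mouse 165 and 4 without MlklAdi-KO HFD mouse 153, and 0 of the 10. The difference was negative for Tlr8 (-1.14), Tlr13 (-1.01), Tlr7 (-1.0), Cd14 (-0.97), Tlr1 (-0.88), Tlr2 (-0.71), Tlr4 (-0.54), Tlr9 (-0.51) and Tlr3 (-0.22) and positive for Tlr5 (0.13), with limma adjusted p of 0.31 to 0.69. That 4 genes were called in MlklAdi-KO and 8 in WT mice is thus not shown to be a difference between the genotypes.

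On NCD the genotypes were compared for the 7 genes that reached a mean of 0.5 FPKM, which left out Tlr1, Tlr9 and Tlr13. 0 of 7 passed the test, against 0% of the 14063 genes tested in limma with Benjamini-Hochberg adjustment. Tlr2 was the 1 gene at an unadjusted p below 0.05, where 528 of all genes were, and edgeR called 0 genes and DESeq2 8, none of them among the 10. Leaving out 1 mouse gave 0 genes in limma, or 1 without mouse 182. Tlr2 was 1.03 to 1.13 FPKM in WT and 1.49 to 1.78 FPKM in MlklAdi-KO mice, without overlap (as were 1.87% of all genes tested, higher in MlklAdi-KO), with a difference of 0.34 (95% interval 0.19 to 0.49, limma adjusted p = 0.92, exact two-sided permutation p = 0.029, the smallest that 4 against 4 mice allow). The difference was 0.61 on the TPM scale, with its shift of 0.30, and 0.34 without mice 182 and 183. Without the library labelled WT of mouse 182 it was 0.35. The summed macrophage markers were also higher in MlklAdi-KO mice on NCD (203 to 317 against 180 to 203 FPKM), with the lowest MlklAdi-KO and the highest WT mouse both at 203.

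**Figure D4:**
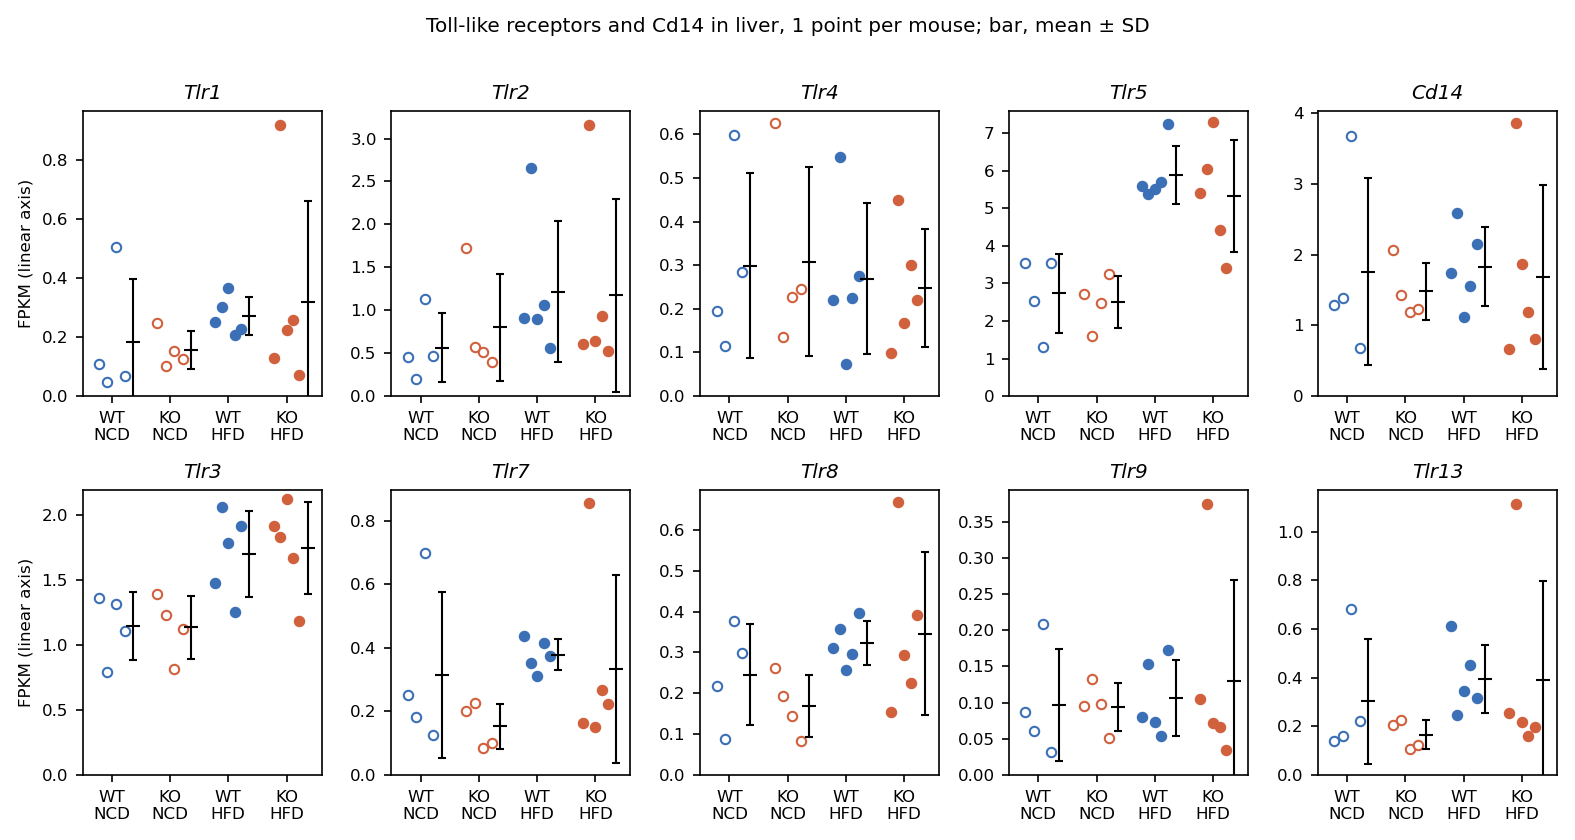
Level of each of the 10 genes in liver (y axis, FPKM, own scale per panel) by genotype and diet (x axis). Points are mice (4 per NCD group, 5 per HFD group), and bars are the mean with the SD, drawn no lower than 0. Tlr5 was higher in all HFD than in all NCD mice of the same genotype, and MlklAdi-KO HFD mouse 152 is the highest point of its group for 8 of the 10 genes.

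In liver the order of the genes was different. Tlr5 was the most abundant of the 10 in every liver group, followed by Cd14 and Tlr3 and then by Tlr2, and the other 6 had group means below 0.5 FPKM. Tlr5 rose on HFD in both genotypes. Only Tlr2, Tlr3, Tlr5 and Cd14 were abundant enough for the test, and 1 of 4 was called in WT mice, where 13.2% of 13330 genes tested were higher and 12.1% lower in limma with Benjamini-Hochberg adjustment. In MlklAdi-KO mice 1 of 4 was called as well, against 11.9% of 13149 genes tested higher and 10.3% lower.

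Tlr5 had 3.55, 2.54, 1.31 and 3.53 FPKM in the liver of WT mice on NCD and 5.58, 5.37, 5.52, 5.69 and 7.25 FPKM on HFD. In MlklAdi-KO mice it had 2.71, 1.61, 2.47 and 3.25 FPKM on NCD and 5.40, 6.05, 7.28, 4.43 and 3.40 FPKM on HFD. The diets did not overlap in either genotype, as for 13.3% of all genes tested in WT and 11.6% in MlklAdi-KO mice that were higher on HFD, with mouse 182 (the library labelled WT) lowest of all and MlklAdi-KO mouse 157 close to the NCD mice. In limma with Benjamini-Hochberg adjustment Tlr5 rose by 0.93 in WT (SE 0.19, adjusted p = 0.0074, ratio of means 2.15) and by 0.84 in MlklAdi-KO mice (SE 0.19, adjusted p = 0.013, ratio 2.12).

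Tlr3 had 1.36, 0.790, 1.32 and 1.10 FPKM on NCD and 1.47, 2.06, 1.79, 1.25 and 1.91 FPKM on HFD in WT liver. In MlklAdi-KO liver it had 1.39, 1.22, 0.811 and 1.12 FPKM on NCD and 1.91, 1.83, 2.12, 1.67 and 1.19 FPKM on HFD. In each genotype 4 of 5 HFD mice lay above all NCD mice, and the difference was 0.33 in WT (limma with Benjamini-Hochberg adjustment, adjusted p = 0.066) and 0.36 in MlklAdi-KO mice (adjusted p = 0.057 in limma). It passed the test without WT mouse 162 (0.39, limma adjusted p = 0.039) and without MlklAdi-KO mouse 157 (0.44, limma adjusted p = 0.019). DESeq2 called it in both genotypes, and edgeR in MlklAdi-KO mice.

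Tlr2 in liver ran from 0.195 FPKM in WT NCD mouse 180 to 3.16 FPKM in MlklAdi-KO HFD mouse 152. Its difference between the diets was 0.47 in WT (limma with Benjamini-Hochberg adjustment, adjusted p = 0.20) and 0.21 in MlklAdi-KO mice (adjusted p = 0.67 in limma). Mouse 155 had the highest Tlr2 of the WT HFD livers (2.65 FPKM, others at most 1.06 FPKM). Mouse 182 had the highest of the WT NCD livers (1.14 FPKM, others at most 0.468 FPKM). Each had the highest sum of the bile duct markers Krt19, Epcam, Sox9 and Spp1 in its group (82.3 and 166 FPKM). Among the MlklAdi-KO NCD livers mouse 166 had the highest Tlr2 (1.72 FPKM, others at most 0.572 FPKM) and the highest Krt19 (15.2 FPKM). The sum of the 4 markers was highest in mouse 179 of that group (59.5 FPKM). Mouse 152 had 0.534 FPKM of Krt19, the highest sum of the 4 markers among the MlklAdi-KO HFD livers (31.6 FPKM) and the highest Clec4f of all livers, a Kupffer cell marker (52.4 FPKM, other livers 12.9 to 29.4 FPKM). The part of bile duct or Kupffer cells in the level of Tlr2 was not tested.

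Cd14 in liver was 0.684 to 3.68 FPKM in WT NCD, 1.19 to 2.07 in MlklAdi-KO NCD, 1.12 to 2.59 in WT HFD and 0.671 to 3.85 FPKM in MlklAdi-KO HFD mice, highest in mice 182 and 152. Its diet differences were 0.12 and 0.01 (limma with Benjamini-Hochberg adjustment, adjusted p = 0.79 and 0.99). Mouse 152 was the highest of its group for 8 of the 10 genes and mouse 182 for 8 of 10. The macrophage markers summed to 183 FPKM in mouse 152 and 127 FPKM in mouse 182, against 59.5 to 104 FPKM in the other livers. Tlr1, Tlr4, Tlr7, Tlr8, Tlr9 and Tlr13 ranged from 0.0324 FPKM (Tlr9, mouse 183) to 1.11 FPKM (Tlr13, mouse 152) and were not tested across the table.

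The genotypes were not separated in liver. On HFD 0 of 4 genes passed, against 0.197% of 13215 genes tested (26 genes), on NCD 0 of 4 against 0.00758% of 13193 (1 gene), and in the interaction 0 of 4 against 0.0151% of 13248 (2 genes), all in limma with Benjamini-Hochberg adjustment. None of the 4 was below an unadjusted p of 0.05 in any of the 3 comparisons, and edgeR and DESeq2 called none of them either. Leaving out 1 mouse gave 9 to 37 genes on HFD, with 9 to 13 without any one of WT mice 154, 161, 162 and 164 and MlklAdi-KO mice 151 and 153. It gave 1 to 7 genes on NCD, with 7 without mouse 182, and 2 to 5 in the interaction, with 5 without mouse 165. The difference between MlklAdi-KO and WT mice for Tlr5 was -0.15 on HFD (95% interval -0.49 to 0.19) and -0.06 on NCD (95% interval -0.60 to 0.48).

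visWAT and liver of the same WT mice were then set side by side. On NCD Cd14, Tlr4, Tlr3, Tlr7 and Tlr2 were higher in visWAT, 5 of the 6 genes tested, where 31.5% of the 14544 genes tested were higher and 34% lower in limma with Benjamini-Hochberg adjustment. These were 4580 and 4947 genes, and 5870 and 2046 on the TPM scale. The differences were 1.80 for Cd14, 1.16 for Tlr4, 0.58 for Tlr3, 0.56 for Tlr7 and 0.44 for Tlr2 (limma adjusted p = 0.0011, 0.00023, 0.0028, 0.013 and 0.044). With the mouse as a block Tlr2 was no longer called (limma adjusted p = 0.055), which left 4. Tlr2 was also lost without mouse 165, 180 or 183, and Tlr7 without 165 or 180 (limma adjusted p = 0.073 and 0.084). Without a filter on low values Tlr2 was not called (limma adjusted p = 0.078), nor was it by edgeR or DESeq2 (adjusted p = 0.10 and 0.068). Tlr2 and Tlr7 overlapped between the tissues (exact two-sided permutation p = 0.14 and 0.057). Tlr8 and Tlr9, too low for the main test, were called as higher in visWAT without the filter and did not overlap (exact p = 0.029 each). The share of all genes without overlap was not taken for NCD. The difference of Tlr5 was -0.55 (limma adjusted p = 0.056), and it was called as lower in visWAT by edgeR and DESeq2 (adjusted p = 0.043 and 0.021), without mouse 182 (-0.86, limma adjusted p = 0.0013) and without mice 182 and 183 (-0.74, limma adjusted p = 0.010).

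On HFD all 10 genes were called: 9 were higher in visWAT, where 41.6% of 14666 genes tested were higher, and Tlr5 was lower, where 43% of them were lower, in limma with Benjamini-Hochberg adjustment. These were 6101 and 6313 genes, and 11215 and 2738 on the TPM scale. The difference was largest for Cd14 (3.41) and Tlr13 (3.21), followed by Tlr8 (2.53), Tlr1 (2.20), Tlr7 (2.02), Tlr4 (1.90), Tlr2 (1.5), Tlr9 (0.93) and Tlr3 (0.43), and it was -1.53 for Tlr5 (SE 0.08, limma adjusted p = 5.7e-09). None of the 10 overlapped between the tissues, whereas 37.3% of all genes tested were higher and 38.9% lower without overlap. On the TPM scale the difference of Tlr5 was -0.75, with the median gene shifted by 0.83. A tissue difference is a difference in cell make-up as well as in expression, and these cannot be told apart here.

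The diet effect was tested for a difference between the tissues. In WT mice 8 of 9 genes passed: Tlr13 (3.07), Tlr8 (2.24), Tlr1 (1.94), Cd14 (1.61), Tlr7 (1.46), Tlr2 (1.06) and Tlr4 (0.75) rose more in visWAT, and Tlr5 (-0.97) rose in liver. Of the 14746 genes tested, 21.8% were higher and 18.2% lower in this sense in limma with Benjamini-Hochberg adjustment, 3214 and 2687 genes, or 4387 and 624 on the TPM scale and 2474 and 2725 in edgeR. edgeR and DESeq2 did not call Tlr2 and Tlr4 (edgeR adjusted p = 0.16 for both), nor did limma with a pseudocount of 0.1 (adjusted p = 0.094 and 0.087), and on the TPM scale Tlr5 was lost (limma adjusted p = 0.070). In MlklAdi-KO mice 4 of 9 passed: Tlr13 (1.96, limma adjusted p = 0.0052) and Tlr1 (1.02, limma adjusted p = 0.0497) rose more in visWAT, and Tlr5 (-0.75, limma adjusted p = 0.013) and Tlr3 (-0.40, limma adjusted p = 0.028) were the other way round, against 21.2% of 14571 genes tested higher and 19.4% lower. Tlr1 was not called with a pseudocount of 0.1 or without a filter (limma adjusted p = 0.11 and 0.10), nor by edgeR or DESeq2 (adjusted p = 0.30 and 0.22), and Tlr3 was not called without a filter or on the TPM scale (limma adjusted p = 0.057 and 0.062). Tlr1 was also lost without any one of mice 166, 179, 197, 199, 151 or 153 (limma adjusted p = 0.074 to 0.13) and Tlr3 without 179, 197, 199, 151 or 153 (limma adjusted p = 0.052 to 0.085). Tlr2 was called without mouse 152 (0.80, limma adjusted p = 0.043) and Tlr8 without mouse 157 (1.24, limma adjusted p = 0.036). Tlr13 and Tlr5 were thus the genes whose diet effects differed between the tissues in both genotypes in every fit that left out 1 mouse.

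Over the 8 groups, WT HFD visWAT had the highest mean for each gene but Tlr5, for which WT HFD liver did. Neighbours in the order of group means overlapped in range for most genes and groups. The exceptions were Tlr13 between MlklAdi-KO HFD and WT NCD visWAT, Tlr2 between MlklAdi-KO HFD and MlklAdi-KO NCD visWAT, and Tlr4 between WT and MlklAdi-KO HFD visWAT. Between the tissues the steps without overlap were those from WT NCD visWAT down to WT HFD liver for Tlr7 and Cd14 and down to MlklAdi-KO NCD liver for Tlr4.

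The machinery around the receptors was described from a list of 64 other genes of the pathway. In WT visWAT 56 of them were tested, of which 33 rose and 5 fell, with a median of 0.34, and in MlklAdi-KO visWAT 25 of 56 rose and 7 fell, with a median of 0.29 (limma with Benjamini-Hochberg adjustment over all genes). Of all genes tested 21.9% rose and 15.8% fell in WT and 23.3% rose and 20.3% fell in MlklAdi-KO visWAT. Tlr6, the other partner of Tlr2, was 0.188 to 0.302 FPKM on NCD and 1.16 to 2.06 FPKM on HFD in WT mice and rose by 1.15 in WT (limma adjusted p = 3.6e-05) and by 0.62 in MlklAdi-KO mice (limma adjusted p = 0.030). Of the ligand transfer and surface partners 4 of 5 rose in each genotype. Ly96, which completes the Tlr4 receptor, rose by 0.69 in WT and 0.63 in MlklAdi-KO mice.

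Of the 8 chaperones and endosomal proteases 7 rose in WT and 8 in MlklAdi-KO mice. Ctsk and Ctss, which encode cathepsins K and S, had the largest rises of the whole list in both genotypes. Ctss was 17.2 to 23.2 FPKM on NCD and 342 to 556 FPKM on HFD in WT mice and rose by 4.45 (SE 0.16, limma adjusted p = 2.2e-07), and Ctsk by 4.46 (SE 0.18, limma adjusted p = 2.8e-07). In MlklAdi-KO mice the rises were 3.27 and 2.93. Unc93b1, the chaperone of the endosomal receptors, was 15.7 to 21.4 FPKM on NCD and 63.7 to 82.6 FPKM on HFD in WT mice, and rose by 1.83 in WT and 1.04 in MlklAdi-KO mice (limma adjusted p = 0.011).

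Of the 5 adaptors tested 4 rose in WT and 3 in MlklAdi-KO mice. Myd88 was 7.08 to 8.39 FPKM on NCD and 9.03 to 11.8 FPKM on HFD in WT mice, a rise of 0.32 (SE 0.09, limma adjusted p = 0.016), and in MlklAdi-KO mice the difference was 0.25 (limma adjusted p = 0.097). Ticam1, the adaptor of Tlr3, rose by 0.55 in WT (limma adjusted p = 0.016) and by 0.39 in MlklAdi-KO mice (limma adjusted p = 0.028). Of 17 kinases and ubiquitin ligases 7 rose and 5 fell in WT and 3 rose and 4 fell in MlklAdi-KO mice. Tab3, an adaptor of the kinase TAK1, and Chuk, which encodes the kinase IKK-alpha, fell most: Tab3 by 0.57 in WT and 0.72 in MlklAdi-KO mice, and Chuk by 0.40 and 0.46. Of 9 transcription factors 6 rose in WT and 2 in MlklAdi-KO mice, of 8 negative regulators 2 rose in WT mice and 2 rose and 3 fell in MlklAdi-KO mice, and of 3 target cytokines tested 2 rose in each.

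**Figure D5:**
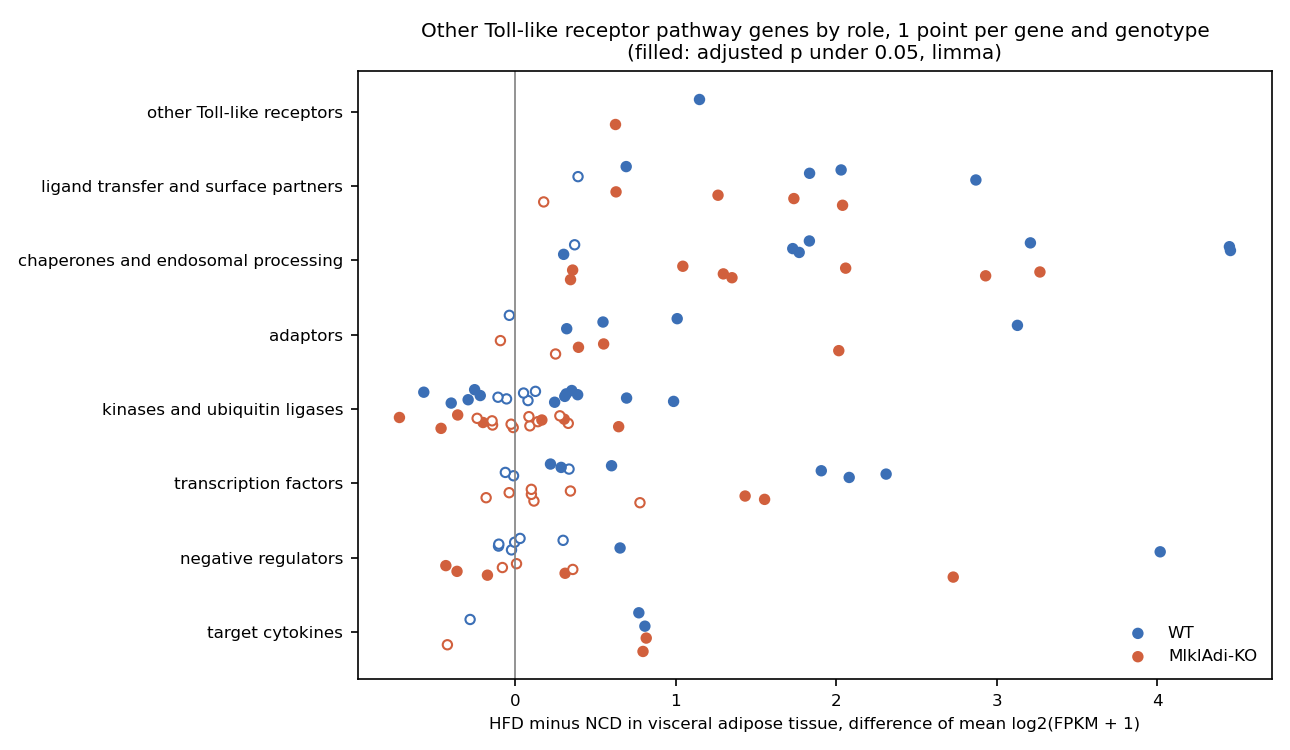
Difference between HFD and NCD in mean log2(FPKM + 1) in visWAT (x axis) for the other genes of the pathway by role (y axis), in blue for WT and orange for MlklAdi-KO. Filled points passed an adjusted p of 0.05 in limma. Surface partners, chaperones and endosomal proteases lie mostly to the right, and kinases and ubiquitin ligases around 0.

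In liver 52 of the 64 genes were tested, and 4 rose and 6 fell in WT and 7 rose and 3 fell in MlklAdi-KO mice. These counts are near the shares of all genes tested in liver, 13.2% higher and 12.1% lower in WT and 11.9% higher and 10.3% lower in MlklAdi-KO mice, and give no result about the list. Tlr12, a receptor for profilin of protozoan parasites, rose most: it was 2.16 to 2.93 FPKM on NCD and 9.32 to 15.5 FPKM on HFD in WT liver (1.78, SE 0.13, limma with Benjamini-Hochberg adjustment, adjusted p = 4.9e-05). In MlklAdi-KO liver it was 2.24 to 3.08 FPKM and 5.39 to 14 FPKM (1.37, SE 0.25, limma adjusted p = 0.0047). Of the receptors tested in liver, Tlr12 and Tlr5 passed the test in both genotypes. The second largest rise was that of Mapk14, which encodes the kinase p38-alpha (0.64 and 0.73), and Pik3ap1, an adaptor also known as BCAP, fell by 0.80 and 0.69. Il1b fell by 0.47 in WT mice, and Ikbkg by 0.24 in MlklAdi-KO mice. Tlr11 was at most 0.515 FPKM in any library, and Tlr12 at most 0.861 FPKM in visWAT. Between the genotypes 0 of the 56 genes tested in visWAT on HFD and 0 of the 52 tested in liver passed the test.

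Between the tissues of WT mice on NCD 13 of 53 of these genes were higher in visWAT and 21 lower, against 31.5% and 34% of all genes tested, with Cd36 (3.41) and Ctsk (2.01) the largest and Pik3ap1 (-3.65) and Chuk (-2.21) the lowest. On HFD 31 of 57 were higher and 20 lower, against 41.6% and 43% of all genes, with Ctsk (6.57) and Atf3 (4.66) the largest and Tlr12 (-3.37) and Chuk (-2.65) the lowest. The diet effect of 29 of 55 was higher in visWAT and of 6 lower in WT mice, against 21.8% and 18.2% of all genes, and of 19 and 9 in MlklAdi-KO mice, against 21.2% and 19.4%. In both genotypes Ctss (4.57 and 3.12) and Ctsk (4.56 and 3.04) were the largest and Tlr12 (-1.64 and -1.56) and Tab3 (-0.48 and -0.69) the lowest.

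As a description of which genes were most like each receptor, Pearson's r of log2(FPKM + 1) was taken over the 10 HFD-fed mice of both genotypes, among 10995 genes in visWAT and 10067 in liver. The genes most like Tlr13 in visWAT were Msr1, Hpgds and Myo1e (r = 0.997, 0.997 and 0.996), those most like Tlr8 were Cybb, Dennd4b and Tm4sf19 (0.996, 0.996 and 0.994) and those most like Tlr1 were Mitf, Dgkz and Plekhn1 (0.995, 0.995 and 0.994). Tlr7 was most like Slc29a3, Mrc1 and Il1rl2 (0.991, 0.991 and 0.991), Tlr2 like Tpcn2, Was and Tmem164 (0.992, 0.988 and 0.988), Tlr4 like Abr and Myo9b (0.994 and 0.992), Tlr9 like Dennd1a, Flcn and Gab2 (0.981, 0.968 and 0.962), and Cd14 like Lyz2, Spp1 and Plekho2 (0.994, 0.994 and 0.993). For Tlr5 they were Osbpl1a, Evi5l and Ndn (0.969, 0.968 and 0.960) and for Tlr3 Ifi47, Naa15 and Hnrnpa3 (0.866, 0.854 and 0.843). The points share the wide range of macrophage markers among the MlklAdi-KO mice, and many genes had values of r close to these. In liver Tlr5 was most like Adhfe1, Pparg and Tmem9b (0.952, 0.921 and 0.919), Cd14 like Tgm2, Nfkb2 and Ctsb (0.971, 0.968 and 0.963), Tlr3 like Anp32e, Avl9 and Usp14 (0.903, 0.896 and 0.888) and Tlr2 like Tbc1d32, Srgap2 and Olfm1 (0.940, 0.897 and 0.894). Without mouse 152 the values for Tlr2 in liver were 0.890, 0.792 and 0.779.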

How the data were processed

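Poly(A) RNA of visWAT and liver was sequenced in paired-end mode. Per the methods of the study, the authors trimmed reads with fastp, aligned them to mm39 with HISAT2 and counted them per gene with featureCounts 1.5.0-p3. The deposited gene table holds FPKM for each library, computed by the authors. The deposited tables of the authors' own comparisons hold raw counts for the genes they list, and these gave the library size behind the FPKM. With it, 100% of the FPKM values came back as whole reads (tolerance 0.01 reads). In visWAT that size was 1.01 to 1.40 times, and in liver 0.737 to 0.812 times, the total of reads assigned to genes, and how it was derived is not given in the sources used here. The fold changes, p-values and enrichment results in those tables were not used, nor were 72 further per-sample columns in them.

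Groups came from the labels. Within each comparison, genes with a mean of at least 0.5 FPKM were tested in limma 3.58.1 (R 4.3.3) on log2(FPKM + 1), with Benjamini-Hochberg adjustment over all genes tested and a threshold of 0.05. Single values were tested by exact two-sided permutation in scipy 1.17.1. The p-values set the difference between groups against the variation between separate mice. The limma, edgeR and DESeq2 fits were tested on data simulated for the diet comparison in WT visWAT, with the same dispersion for every gene. The interactions and the fits with the mouse as a block were not tested in this way. Alternatives were a pseudocount of 0.1, no filter and a filter at 1 FPKM, the TPM scale, edgeR 4.0.16 and DESeq2 1.42.0 on the recovered reads, all 4 groups of a tissue in 1 fit, the mouse as a block, leaving out mice 182 and 183, and leaving out each mouse in turn. The ratio to macrophage markers and its Adgre1 version were added after the data were seen. The 10 genes, the pathway list and the marker lists were chosen with earlier results of these data known. All 10 genes are named, with the pathway genes of largest and lowest called difference per comparison, fixed examples of each role and the 3 genes of highest r, of which 1 is not reported here. visWAT and liver came from the same mice, but the main fits between the tissues held no term for the mouse. The fit with the mouse as a block was the alternative. The correlation of deviations between the tissues of 1 mouse was -0.0516 to 0.223, over 0.1 in 2 of 18 mice. No replicate pair agreed within sampling noise (smallest chi-square per degree of freedom 9.82). Read depth limits the rare genes, and the intervals are for the difference of the group means, judged from the spread between mice.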

Additional observations from a re-analysis of the deposited data

Results flagged for a closer look

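12 of 80 sets, each holding the values of a gene in a group, held a mouse far from the rest of its group. Chance alone gives about 1 in 20 only if the sets are independent. They are not, because the same mice recur for every gene. Of the 12, 5 came from the liver of MlklAdi-KO HFD mouse 152 and 2 from the NCD liver of mouse 182. No excess over chance can therefore be read from the count. MlklAdi-KO HFD mouse 152 was high in liver for Tlr1 (0.919 FPKM), Tlr2 (3.16), Tlr7 (0.855), Tlr9 (0.374) and Tlr13 (1.11 FPKM). The library labelled WT of mouse 182 was high in NCD liver for Tlr1 (0.505 FPKM) and Tlr13 (0.684 FPKM). Tlr2 in liver was also high in MlklAdi-KO NCD mouse 166 (1.72 FPKM) and WT HFD mouse 155 (2.65 FPKM), and Tlr5 in liver in WT HFD mouse 164 (7.25 FPKM). In visWAT, Tlr2 was high in WT HFD mouse 161 (5.52 FPKM) and Tlr4 low in WT NCD mouse 183 (1.26 FPKM).

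The diet effect differed between visWAT and liver, by the interaction term in limma with Benjamini-Hochberg adjustment, for Tlr13 (3.07 in WT and 1.96 in MlklAdi-KO mice), Tlr1 (1.94 and 1.02) and Tlr5 (-0.97 and -0.75) in both genotypes. In MlklAdi-KO mice the call of Tlr1 (limma adjusted p = 0.0497) was lost with a pseudocount of 0.1, without a filter, in edgeR, in DESeq2 and without any one of 6 mice. In WT mice it also differed for Tlr8 (2.24), Cd14 (1.61), Tlr7 (1.46), Tlr2 (1.06) and Tlr4 (0.75), and in MlklAdi-KO mice for Tlr3 (-0.40). In WT mice Tlr2 and Tlr4 were lost with a pseudocount of 0.1, in edgeR and in DESeq2 and Tlr5 on the TPM scale, and in MlklAdi-KO mice Tlr3 was lost without a filter, on the TPM scale and without any one of 5 mice. Whether these differences between the tissues themselves differed between the genotypes was not tested.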

How the results depend on the processing

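The number of the 10 genes called was 8 for WT visWAT across the diets, 10 for visWAT against liver on HFD and 0 for each genotype comparison and interaction with genotype, in every fit that left out 1 mouse. Leaving out 1 mouse moved the number called across the diets between 2 and 6 in MlklAdi-KO visWAT and between 1 and 2 in WT and in MlklAdi-KO liver, that for visWAT against liver on NCD between 3 and 6, and that for the tissue by diet interaction in MlklAdi-KO mice between 2 and 5. Across the diets 3 genes were called in MlklAdi-KO visWAT without a filter, 5 with edgeR and with 4 groups in 1 fit, and 6 with DESeq2, against 4, 2 in WT liver with DESeq2, and 2 in MlklAdi-KO liver with edgeR, with DESeq2 and with 4 groups in 1 fit, where Tlr3 joined Tlr5. For visWAT against liver on NCD 3 were called with a filter at 1 FPKM, which tests fewer genes, and for the interaction in MlklAdi-KO mice 2 without a filter, the cause of which was not tested. With the mouse as a block in the paired comparison of tissues, 4 genes were called on NCD, 10 on HFD, 8 for the interaction in WT and 4 in MlklAdi-KO mice, so that Tlr2 on NCD was the 1 call it changed. Per Adgre1, Tlr1 turned to -0.41 in WT and -0.43 in MlklAdi-KO mice and Tlr8 to -0.34 and -0.56. Over all results and alternatives 1645 values kept their direction and side of the threshold, 43 fell short of it, 19 newly passed it and 4 reversed. Over all genes, DESeq2 called 161 between the genotypes in HFD visWAT against 3 in limma, 262 against 26 in HFD liver, 21 against 1 in NCD liver and 63 against 2 for the interaction in liver. Genotype calls in HFD liver fell to 7 without a filter and in HFD visWAT rose to 15 with 4 groups in 1 fit, or 5 on the TPM scale. NCD visWAT had 2 genes without a filter, 8 with DESeq2, 1 with 4 groups in 1 fit and 3 without mice 182 and 183. NCD liver had 3 without a filter and with 4 groups in 1 fit, and the interaction 21 in visWAT with DESeq2 and, in liver, 4 with a filter at 1 FPKM and 1 with edgeR. Depth limits Tlr1, Tlr4, Tlr7, Tlr8, Tlr9 and Tlr13 in liver, with as few as 2 reads in a library.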
